A study of Mus musculus with 5 samples.

Results

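Fibroblast and adipocyte progenitor markers, 36 genes chosen by symbol from the 24531 genes of the deposited table, were followed in primary epididymal adipocytes of C57BL/6N mice kept on a high-fat diet for 12 weeks. Collagens were left out of the choice. The members comprised 13 receptors and antigens of the cell surface, 5 small leucine-rich proteoglycans, 5 proteins of microfibrils and elastic fibres, 10 other secreted or matrix proteins and 3 intracellular proteins. There were 3 libraries labelled Prmt1 f/f (genotype WT in the labels), with floxed alleles of the arginine methyltransferase gene Prmt1, and 2 labelled Prmt1 FKO, in which the gene is deleted in adipocytes. The sources used here do not give the Cre line behind the deletion, the ages of the mice, any pooling or the way adipocytes were parted from the stroma. Nothing in the labels ties each library to an animal of its own, so the p-values reflect library-to-library spread, which may be technical.

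Fat tissue holds adipocytes beside a stroma of fibroblast-like cells that carry the platelet-derived growth factor receptor PDGFRA, and new adipocytes arise from this stroma. In mouse fat, cells with DPP4 and PI16 lie in the connective tissue between lobules and give rise to ICAM1-bearing preadipocytes, and cells with tissue factor (F3, CD142) form a further population. The same stromal cells secrete much of the proteoglycan and elastic fibre scaffold of the depot. Mature adipocytes make some of these transcripts too, and podoplanin is also made by mesothelium and lymphatic endothelium.

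All 36 members were counted and passed the filter on low counts. Total estimated counts per library were 43580154 to 57016997. The members held between 1.40% and 1.52% of the counts in f/f and 0.578% and 0.439% in FKO. Gelsolin (Gsn) alone took 1.24% to 1.31% in f/f, so the remaining 35 members came to 0.161% to 0.216% of f/f counts and to 0.128% and 0.124% of FKO counts. Prmt1 was at 34.1, 29.4 and 32.3 CPM in f/f replicates 1 to 3 and at 21.0 and 19.3 CPM in FKO (CPM, estimated counts scaled to a common library size with TMM factors). Its log2 fold change was -0.66 (edgeR quasi-likelihood test, adjusted p = 0.0171), and the call ended without FKO replicate 1 or 2 (adjusted p = 0.115 and 0.161). All 20 adipocyte markers listed had counts, with summed levels of 87790 to 100300 CPM in f/f and 141700 and 124800 CPM in FKO. Car3, Fabp4 and Lpl were the largest parts of that sum. By the same test 7 of the 20 rose and 0 fell, beside 11.9% and 13.4% of all genes tested, and 5 had a log2 fold change below 0. The depth allowed a floor of 3 counts, or 0.0468 to 0.0713 CPM.

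Sequences around the transcript start are shown for 5 members that the results turn on. They are the 2 members that fell with the smallest p, the member with the highest level (Gsn), and both members that rose. They were picked with their values known. Each runs from 250 bases before to 50 bases after the start, 5′ to 3′ on the coding strand, from RefSeq on GRCm38.p6, the assembly also called mm10. Capitals mark matches on either strand to 6 motifs, namely the TATA box (TATAAA), AP-1 (TGANTCA), TEAD (GGAATG), EBF (TCCC, any 2 bases, GGGA), the CCAAT box (CCAAT) and the GC box (GGGCGG). In Dpp4 the TEAD and EBF matches overlap and appear as 1 run of capitals.
Efemp1 (chr11:28852955-28853254, plus strand): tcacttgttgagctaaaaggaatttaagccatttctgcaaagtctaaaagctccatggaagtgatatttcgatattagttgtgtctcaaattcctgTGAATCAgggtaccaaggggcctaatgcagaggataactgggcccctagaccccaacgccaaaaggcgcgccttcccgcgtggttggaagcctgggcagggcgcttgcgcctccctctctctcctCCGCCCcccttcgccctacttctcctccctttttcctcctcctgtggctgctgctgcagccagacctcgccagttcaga
Dpp4 (chr2:62412182-62412481, minus strand): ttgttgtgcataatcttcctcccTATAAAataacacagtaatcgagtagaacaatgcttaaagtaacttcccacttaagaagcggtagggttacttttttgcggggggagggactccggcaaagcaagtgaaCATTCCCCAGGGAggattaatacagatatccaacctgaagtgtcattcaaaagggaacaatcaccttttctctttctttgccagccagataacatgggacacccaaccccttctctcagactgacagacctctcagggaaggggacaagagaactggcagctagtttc
Gsn (chr2:35282130-35282429, plus strand): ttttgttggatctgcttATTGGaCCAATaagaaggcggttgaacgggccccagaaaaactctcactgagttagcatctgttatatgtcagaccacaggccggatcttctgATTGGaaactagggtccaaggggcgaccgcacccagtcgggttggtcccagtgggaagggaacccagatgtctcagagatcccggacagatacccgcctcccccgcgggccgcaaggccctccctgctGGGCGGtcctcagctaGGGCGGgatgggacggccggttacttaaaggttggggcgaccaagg
F3 (chr3:121723287-121723586, plus strand): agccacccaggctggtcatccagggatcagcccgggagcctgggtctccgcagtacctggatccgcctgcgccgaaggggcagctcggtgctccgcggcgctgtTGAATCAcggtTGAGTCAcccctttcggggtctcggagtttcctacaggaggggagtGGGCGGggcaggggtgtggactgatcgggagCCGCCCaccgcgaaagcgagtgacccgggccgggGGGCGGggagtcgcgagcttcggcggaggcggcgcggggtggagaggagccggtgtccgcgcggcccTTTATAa
Ackr3 (chr1:90203730-90204029, plus strand): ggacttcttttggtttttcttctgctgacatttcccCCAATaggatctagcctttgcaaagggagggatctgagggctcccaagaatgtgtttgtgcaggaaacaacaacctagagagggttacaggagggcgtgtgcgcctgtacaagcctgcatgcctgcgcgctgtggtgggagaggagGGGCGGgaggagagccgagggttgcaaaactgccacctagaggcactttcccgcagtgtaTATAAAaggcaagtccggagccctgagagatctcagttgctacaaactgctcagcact
The RefSeq table held 27 such windows for 23 of the 36 members. Letters of the TATA box, at any position and on either strand, were found in 8 of the 27 windows, against 13.6% of all 32851 windows. GC boxes stood in 16 of the 27, against 35.7% of all, and CCAAT boxes in 8 of the 27, against 37.4%. AP-1, TEAD and EBF motifs were found in 3, 2 and 1 of the 27 windows, against 7.8%, 14.7% and 0.9% of all. Both members that rose had a match to the TATA box letters and to the GC box. Of the 3 shown that fell, Dpp4 had a TATA box match and the other 2 had GC box matches. The TATA box matches began at base 294 of the window in F3, 243 in Ackr3 and 24 in Dpp4. That of F3 was on the opposite strand and past the start. The search did not ask for a position, so these are matches of letters only. The median GC content was 54.3% in the members' windows and 52.7% in all.

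Levels per transcript length (FPKM, from the authors) spread widely between members. In f/f, Gsn, which severs and caps actin filaments, stood at 4728 ± 119.8 FPKM (SD, n = 3), next to 4170.1 ± 567 FPKM (SD, n = 3) for the adipocyte hormone gene Adipoq. Gsn therefore lay near Adipoq in FPKM, away from the other members. Next came the matrix proteins dermatopontin (Dpt, 169 ± 33.1 FPKM) and decorin (Dcn, 137 ± 16.6), then Serpinf1 (116 ± 59.4), Efemp1 (98.0 ± 8.12) and F3 (62.1 ± 15.0). Those SDs overlap for Dpt and Dcn and for Serpinf1 and its neighbours, so the order within this run is not settled. At the bottom were Thy1 (1.66 ± 0.93), Fap (1.57 ± 0.77), Pdgfra (1.43 ± 0.53) and Pi16 (1.19 ± 1.06), which did not differ beyond their spread. In FKO, Gsn was again the highest at 1418 ± 351 FPKM (SD, n = 2). Serpinf1 (192 ± 13.2) and F3 (97.1 ± 5.13) came next, Efemp1 took ninth place at 23.0 ± 2.25, and Pi16 was the lowest at 0.16 ± 0.0063.

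**Figure D1:**
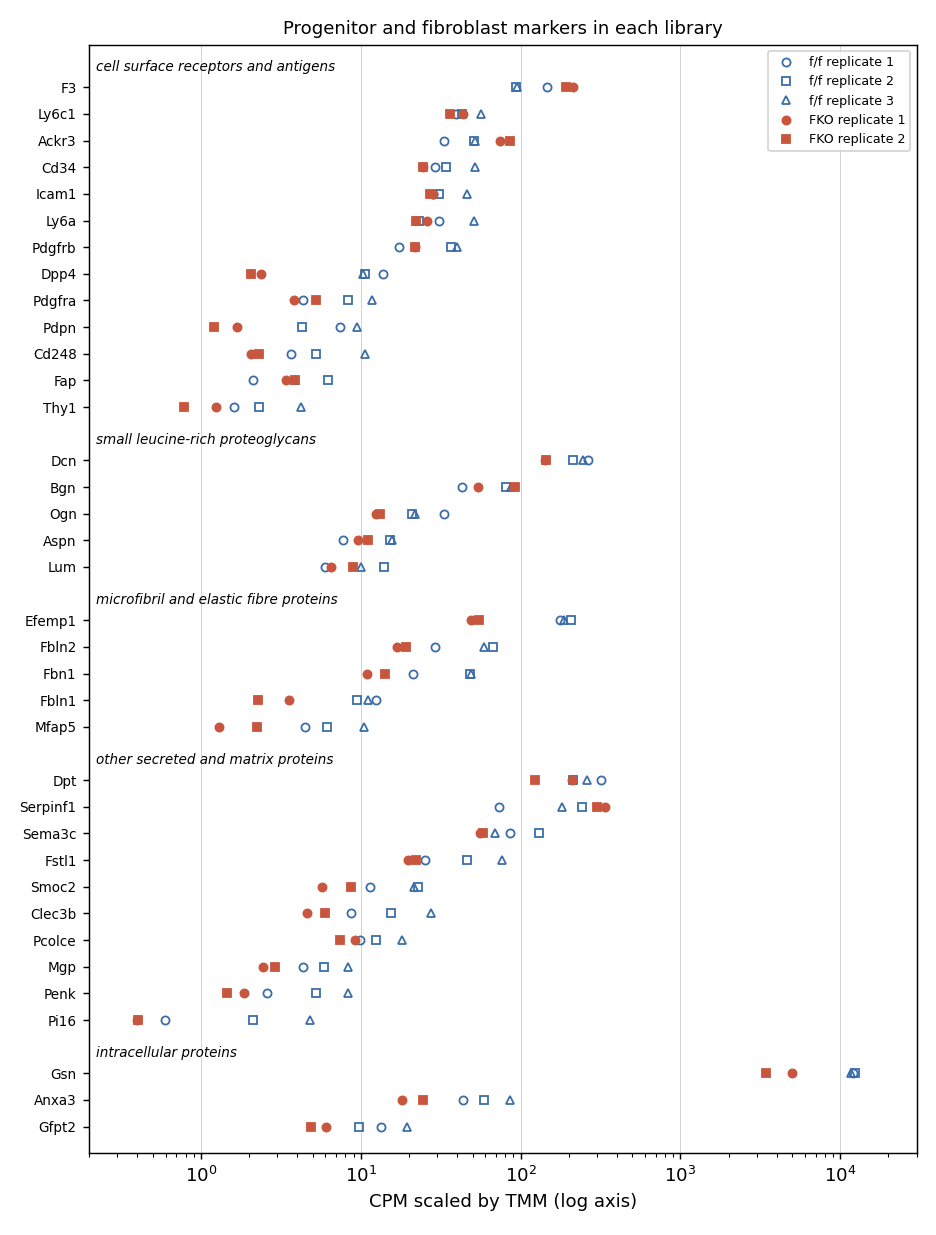
Level of each of the 36 members in each library, in CPM scaled by TMM on a log axis, grouped by role. Open blue symbols are the 3 f/f libraries and filled red symbols the 2 FKO libraries. Gsn lies far to the right of the other members at 3424 to 12412 CPM, and the FKO symbols of Efemp1, Dpp4, Fbln1 and Pdpn lie apart from their f/f symbols.

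The f/f libraries did not hold the members at 1 common level. Replicate 3 had the highest CPM for 22 of the 36 members, replicate 2 for 8 and replicate 1 for 6. Over all genes tested replicate 3 was highest in 36.8%. Replicate 1 had the lowest CPM for 25 members. The 6 members that were highest in replicate 1 were Dpp4, F3, Dcn, Ogn, Fbln1 and Dpt. Between f/f libraries the highest CPM exceeded the lowest by 1.07 times for Gsn and 1.17 times for Efemp1. It exceeded it by 7.98 times for Pi16, 3.30 times for Serpinf1 and 3.19 times for Clec3b. In FKO, replicate 1 was the higher for 15 members and replicate 2 for 21.

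Of the 36 members, 17 fell and 2 rose in FKO (edgeR quasi-likelihood test, Benjamini-Hochberg adjusted over all 14492 genes tested). Among all genes tested, 13.4% fell and 11.9% rose. At least 2-fold falls were called for 15 members and for 9.48% of all genes. Both FKO libraries lay below all f/f libraries for 24 members and above them for 3, and these arrangements were found in 30.5% and 28.6% of all genes. Groups overlapped for 9 of the 36 members and for 5935 of the 14492 genes tested, which leaves 59% of all genes without overlap. The median log2 fold change was -1.09 for the members and -0.05 for all genes. The members were chosen with earlier results of these data known, so these counts describe the list. In bulk RNA, fewer cells of a type and less of an RNA per cell cannot be told apart. Without FKO replicate 1 or 2, 5 and 4 members fell and the medians were -1.08 and -1.11. Calls dropped over all genes as well, to 424 lower of 14967 tested without FKO replicate 1 and 525 of 15006 without FKO replicate 2. In those fits the lone FKO library is assumed to vary like the other group. Dpp4, Efemp1, Fbln1 and Gsn kept their call under all 14 alternatives. The split of calls moved with other scalings of the edgeR fit and with limma on log2 FPKM, which changes the test and the gene filter too, from 1944 lower and 1730 higher genes to 2415 and 1299 (upper-quartile factors), 2916 and 1030 (library size alone) and 2852 and 1071 (limma on log2 FPKM). The median of all genes then moved to -0.17, -0.27 and -0.23, and for the members the split became 18 and 1, 20 and 0, and 19 and 1. With library size alone both risers still had an unadjusted p under 0.05, and DESeq2 called both.

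**Figure D2:**
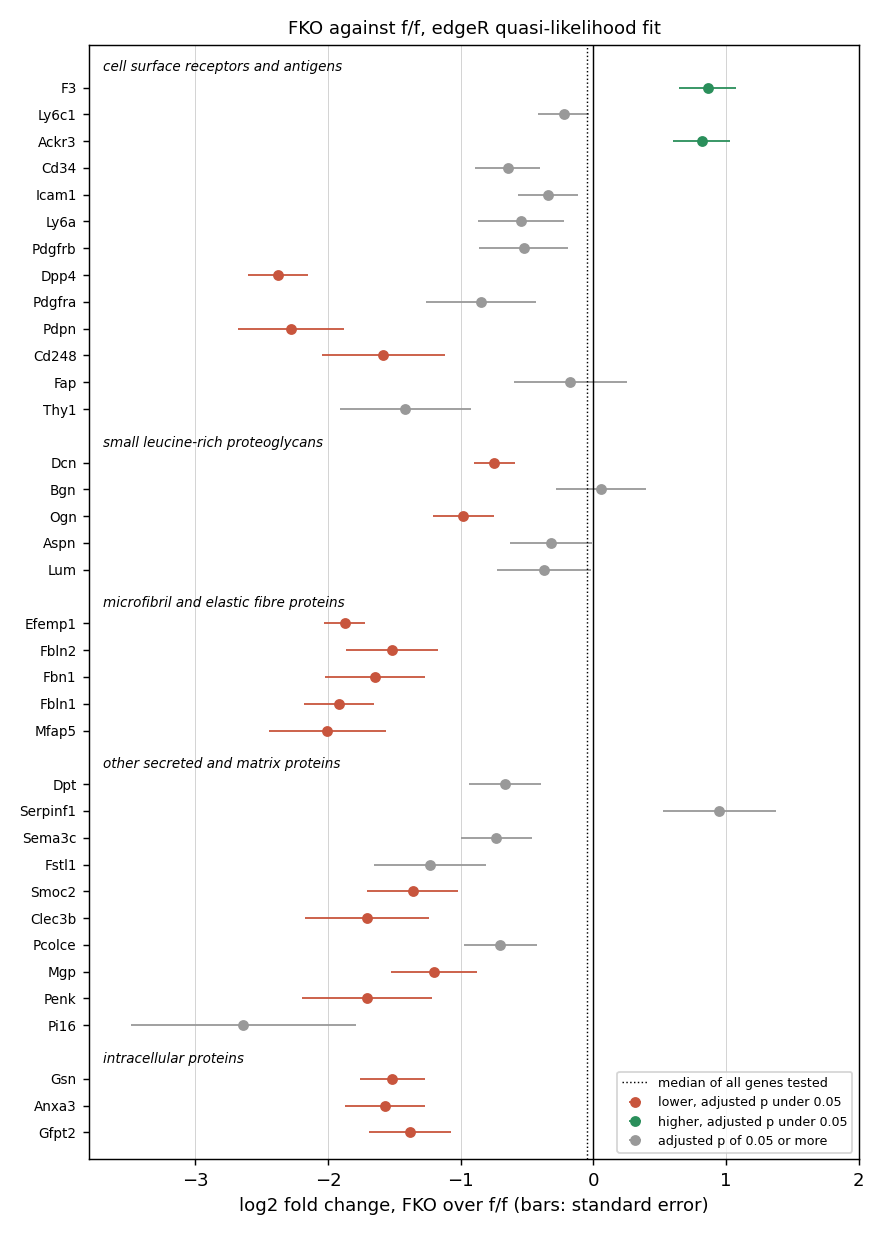
Log2 fold change of FKO over f/f for each member, with its standard error, from the edgeR fit. Red points passed the test as lower, green points as higher and grey points did not pass; the dotted line is the median of all genes tested. All 5 microfibril and elastic fibre genes lie between -2.0 and -1.52, and F3 and Ackr3 lie at 0.86 and 0.82.

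Among the 13 surface receptors and antigens, Dpp4, Pdpn and Cd248 fell and F3 and Ackr3 rose, and the median log2 fold change was -0.54. Of all genes tested, 13.4% fell and 11.9% rose. Dpp4 (chromosome 2, 62330073 to 62412231, minus strand), a membrane peptidase that trims incretins and chemokines, was at 13.8, 10.6 and 10.3 CPM in f/f and at 2.38 and 2.07 CPM in FKO. The groups lay far apart, at 11.6 ± 1.93 CPM (SD, n = 3) and 2.22 ± 0.22 CPM (SD, n = 2). The change was 5.20-fold lower, with a log2 fold change of -2.38 (SE 0.23, edgeR adjusted p = 0.0016). Podoplanin (Pdpn), a mucin-like glycoprotein, was at 7.43, 4.27 and 9.46 CPM in f/f and at 1.69 and 1.21 CPM in FKO. It was 4.85-fold lower (log2 fold change -2.28, SE 0.40, edgeR adjusted p = 0.00922), and the call ended without FKO replicate 2 (adjusted p = 0.0657). Endosialin (Cd248), a stromal glycoprotein, was at 3.66, 5.24 and 10.6 CPM in f/f and at 2.04 and 2.31 CPM in FKO. The f/f value of replicate 3 was the highest and the groups did not overlap. Its log2 fold change of -1.58 (SE 0.47) had an edgeR adjusted p = 0.0461. That call ended without f/f replicate 2 or 3 (adjusted p = 0.0687 and 0.0504), without FKO replicate 1 or 2 (0.2 and 0.157) and with limma-voom (0.0927).

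F3 (chromosome 3, 121723537 to 121735052, plus strand), the tissue factor that starts blood clotting, was at 146, 93.8 and 95.5 CPM in f/f. It was at 213 and 193 CPM in FKO, above every f/f library. Its log2 fold change was 0.86 (SE 0.22, edgeR adjusted p = 0.0295), 1.81-fold higher. Ackr3 (chromosome 1, 90203980 to 90215722, plus strand), a scavenger receptor of the chemokine CXCL12, was at 33.2, 51.3 and 52.0 CPM in f/f and at 74.3 and 85.9 CPM in FKO. The groups did not overlap, and the log2 fold change was 0.82 (SE 0.22, edgeR adjusted p = 0.0341). Both rises rested on few libraries and on the scaling. The F3 call ended without f/f replicate 2 or 3 (adjusted p = 0.0697 and 0.0634), without FKO replicate 1 or 2 (0.167 and 0.107) and with library size alone (0.0568). The Ackr3 call ended without f/f replicate 2 (0.0519), without FKO replicate 1 or 2 (0.111 and 0.187), with library size alone (0.101), in limma on log2 FPKM (0.0994) and with upper-quartile factors (0.059). Of the chemokine genes around Ackr3, the signalling receptor Cxcr4 fell, with means of 20.6 CPM in f/f and 8.99 CPM in FKO and a log2 fold change of -1.20 (edgeR adjusted p = 0.0112). Its call ended without FKO replicate 1 or 2 (adjusted p = 0.0976 and 0.0562). Cxcl12 itself had a log2 fold change of -0.23 (adjusted p = 0.337). Cxcl11, a further ligand, rose from 0.57 to 2.09 CPM (1.87, edgeR adjusted p = 0.0424), a call lost in 6 of 14 alternatives, among them leaving out f/f replicate 1 or 2 or either FKO library (up to 0.154).

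The receptors that define the stromal lineage did not pass the test. Pdgfra was at 4.32, 8.32 and 11.8 CPM in f/f and at 3.80 and 5.28 CPM in FKO, where f/f replicate 1 lay between the FKO libraries. The log2 fold change came to -0.85 (SE 0.41, edgeR adjusted p = 0.171). Pdgfrb, the receptor shared with pericytes, was at 17.3, 36.7 and 40.2 CPM in f/f and at 21.8 CPM in FKO, in both libraries. The log2 fold change came to -0.53 (SE 0.34, edgeR adjusted p = 0.286), and here f/f replicate 1 was below both FKO libraries. Without f/f replicate 1 both passed (Pdgfra -1.14, adjusted p = 0.0392, and Pdgfrb -0.80, adjusted p = 0.0168). The 4 ligand genes of these receptors had log2 fold changes between -0.77 and 0.18, led by Pdgfd, which was at 4.0 CPM in f/f and 2.35 CPM in FKO (edgeR adjusted p = 0.0941). The haematopoietic and stromal antigen Ly6a (Sca-1) had a log2 fold change of -0.54 (adjusted p = 0.25), and Ly6c1 one of -0.23 (adjusted p = 0.428). Ly6c1 has a close copy, Ly6c2, which was given 2.01 CPM in f/f and 0.93 CPM in FKO beside 46.3 and 39.6 CPM for Ly6c1, so reads may be split between them. The sialomucin Cd34 was at 29.2, 34.3 and 51.5 CPM in f/f and at 24.3 and 24.6 CPM in FKO, groups that did not overlap (log2 fold change -0.65, adjusted p = 0.0956). Icam1, an adhesion molecule of committed preadipocytes, was at -0.34 (adjusted p = 0.303). Thy1 had -1.42 (SE 0.49, adjusted p = 0.0749), and it passed by DESeq2 (0.0271) and without f/f replicate 1 (-1.67, adjusted p = 0.049). The gelatinase Fap had -0.17 (adjusted p = 0.791), and 0.26 without f/f replicate 2.

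All 5 genes of microfibrils and elastic fibres fell, with no overlap between the groups and a median log2 fold change of -1.87. The shares over all genes tested were 13.4% for a fall and 30.5% for both FKO libraries below all f/f libraries. Efemp1 (fibulin-3; chromosome 11, 28853205 to 28926743, plus strand) was at 177, 208 and 187 CPM in f/f and at 49.0 and 55.0 CPM in FKO. It was 3.67-fold lower, with a log2 fold change of -1.87 (SE 0.16, edgeR adjusted p = 0.00122), the smallest p among the members. Fbln1, another fibulin, was at 12.5, 9.49 and 11.0 CPM in f/f and at 3.53 and 2.28 CPM in FKO (log2 fold change -1.92, SE 0.26, edgeR adjusted p = 0.00422). Both genes varied little within f/f, by at most 1.32 times. Fbn1, the chief protein of microfibrils, was at 21.1, 48.1 and 48.6 CPM in f/f and at 10.9 and 14.2 CPM in FKO (log2 fold change -1.65, SE 0.38, edgeR adjusted p = 0.0209). Mfap5, which binds fibrillin, was at 4.48, 6.17 and 10.5 CPM in f/f and at 1.29 and 2.23 CPM in FKO (log2 fold change -2.0, edgeR adjusted p = 0.019). Fbln2 was at 29.1, 67.5 and 58.8 CPM in f/f and at 16.9 and 19.2 CPM in FKO (log2 fold change -1.52, edgeR adjusted p = 0.021). For these last 3 genes f/f replicate 1 was the f/f library nearest to FKO. Their calls ended without FKO replicate 1 (adjusted p = 0.13 for Fbn1, 0.117 for Mfap5 and 0.124 for Fbln2) and without FKO replicate 2 (0.0787, 0.0523 and 0.0935), and that of Fbn1 without f/f replicate 2 (0.0539). In annotation, 20.1% of the exonic bases of Fbn1 overlap an antisense transcript.

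Of 13 further elastic fibre genes tested, 2 fell and 1 rose, with a median of -0.45. These counts are close to the shares among all genes tested, 13.4% lower and 11.9% higher. The list summed to 630 to 905 CPM in f/f and to 860 and 874 CPM in FKO. Ltbp3, the gene that rose, made up 423 of a mean of 810 CPM in f/f and 664 of 867 CPM in FKO. Fbln5, which helps to assemble elastin, fell, with 59.4 ± 15.0 CPM (SD, n = 3) in f/f and 16.2 ± 0.26 CPM (SD, n = 2) in FKO, a log2 fold change of -1.88 (edgeR adjusted p = 0.00352). Emilin2 fell, with 103 ± 64.2 CPM (SD, n = 3) in f/f and 11.0 ± 2.73 CPM (SD, n = 2) in FKO, a log2 fold change of -3.23 (edgeR adjusted p = 0.00986; 0.0696 without FKO replicate 1). Ltbp3, a binding protein of latent TGF-beta, rose, with means of 423 CPM in f/f and 664 CPM in FKO and a log2 fold change of 0.65 (edgeR adjusted p = 0.0311). The Ltbp3 call was lost in 7 of 14 alternatives, among them leaving out f/f replicate 1 or 2 or either FKO library (up to 0.17).

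Of the 5 small leucine-rich proteoglycans, which coat collagen fibrils, Dcn and Ogn fell, beside 13.4% of all genes tested. Decorin was at 264, 213 and 244 CPM in f/f and at 143 in both FKO libraries. It was 1.68-fold lower (log2 fold change -0.75, SE 0.15, edgeR adjusted p = 0.0149), with FKO below every f/f library. Osteoglycin (Ogn) was at 33.0, 20.9 and 22.0 CPM in f/f and at 12.5 and 13.1 CPM in FKO (log2 fold change -0.98, SE 0.23, edgeR adjusted p = 0.0224). Both calls ended without FKO replicate 1 (adjusted p = 0.132 and 0.141) and without FKO replicate 2 (0.12 and 0.112). Lumican (Lum, -0.37) and asporin (Aspn, -0.32) had adjusted p = 0.472 and 0.479. Biglycan (Bgn), an X-linked gene, was at 42.7, 80.9 and 86.7 CPM in f/f and at 54.3 and 91.7 CPM in FKO, so the groups overlapped. Its log2 fold change of 0.06 (adjusted p = 0.917) was below 0 with upper-quartile factors, library size alone and limma on log2 FPKM (-0.07, -0.17 and -0.14), and without f/f replicate 1 or FKO replicate 2 (-0.19 and -0.37). Of 9 further family members tested, 4 fell and 1 rose, beside 13.4% and 11.9% of all genes tested. Prelp, named after its values were seen, fell, with 1159 ± 639.6 CPM (SD, n = 3) in f/f and 287 ± 68.9 CPM (SD, n = 2) in FKO, and f/f replicate 2 stood alone at 1889 CPM (log2 fold change -2.01, edgeR adjusted p = 0.0196). Fibromodulin (Fmod), a close relative of lumican, fell from 17.2 to 4.27 CPM (-2.01, edgeR adjusted p = 0.00295), and Optc fell from 4.54 to 0.61 CPM (-2.91, edgeR adjusted p = 0.0114; -2.41 and 0.0685 without FKO replicate 1, -3.66 and 0.0317 without FKO replicate 2). Ecm2 fell from 7.48 to 3.85 CPM (-0.96, edgeR adjusted p = 0.0182; 0.147 and 0.0859 without FKO replicate 1 or 2). Tsukushi (Tsku), a secreted inhibitor of BMP and Wnt signals, rose, with 4.14 ± 1.19 CPM (SD, n = 3) in f/f and 86.2 ± 12.2 CPM (SD, n = 2) in FKO, a log2 fold change of 4.38 (edgeR adjusted p = 0.000441).

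Among the 10 other secreted and matrix proteins, Clec3b, Mgp, Smoc2 and Penk fell, beside 13.4% of all genes tested. Clec3b (tetranectin), which binds plasminogen, was at 8.63, 15.4 and 27.5 CPM in f/f and at 4.58 and 5.94 CPM in FKO (log2 fold change -1.71, SE 0.47, edgeR adjusted p = 0.0365). Smoc2, a calcium-binding matricellular protein, was at 11.4, 22.7 and 21.4 CPM in f/f and at 5.69 and 8.72 CPM in FKO (-1.36, SE 0.34, edgeR adjusted p = 0.028). In both genes every FKO value lay below f/f replicate 1, the lowest f/f library. Mgp, an inhibitor of calcification, was at 4.32, 5.87 and 8.34 CPM in f/f and at 2.44 and 2.92 CPM in FKO (-1.20, SE 0.32, edgeR adjusted p = 0.0351). Penk, the precursor of enkephalins, was at 2.59, 5.24 and 8.26 CPM in f/f and at 1.84 and 1.45 CPM in FKO (-1.70, SE 0.49, edgeR adjusted p = 0.0434). All 4 calls depended on single libraries. Without f/f replicate 2 they had adjusted p between 0.0683 and 0.0861, without FKO replicate 1 between 0.143 and 0.191 and without FKO replicate 2 between 0.0662 and 0.195. Without f/f replicate 3 the calls of Mgp, Penk and Smoc2 ended (0.0564, 0.0777 and 0.0644), and limma-voom gave 0.0787, 0.0559 and 0.0924 for Clec3b, Mgp and Penk. In annotation, 14.3% of the exonic bases of Penk overlap an antisense transcript.

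The other 6 secreted proteins did not pass. Pi16, a peptidase inhibitor and marker of the interstitial progenitors, was at 0.60, 2.13 and 4.78 CPM in f/f, or 27, 125 and 306 counts. It was at 0.40 CPM in both FKO libraries, or 18 and 17 counts. The f/f libraries differed by 7.98 times, and the log2 fold change of -2.64 had an SE of 0.85 (edgeR adjusted p = 0.0597). It passed by DESeq2 (0.00425), with library size alone (0.0499) and without f/f replicate 1 (-3.08, adjusted p = 0.0162). The value was smaller without f/f replicate 3 (-1.77, adjusted p = 0.115), with the replicate number as a block (-1.54, adjusted p = 0.085) and in limma on log2 FPKM (-1.93, adjusted p = 0.0901). Fstl1, a secreted glycoprotein, was at 25, 46.4 and 76.5 CPM in f/f and at 19.8 and 22.1 CPM in FKO (-1.23, edgeR adjusted p = 0.0715), and passed by DESeq2 (0.0118) and without f/f replicate 1 (-1.54, adjusted p = 0.0167). Sema3c, a guidance ligand, was at 85.8, 130 and 68.8 CPM in f/f and at 56.1 and 58.2 CPM in FKO (-0.73, edgeR adjusted p = 0.0849), and passed by DESeq2 (0.0373), with library size alone (0.0307), in limma on log2 FPKM (0.0341), with upper-quartile factors (0.0439) and without f/f replicate 3 (-0.92, adjusted p = 0.0322). Dpt and Pcolce, an enhancer of procollagen processing, had -0.67 and -0.70 (adjusted p = 0.114 and 0.102). Dpt passed in limma on log2 FPKM (0.043) and with library size alone (0.0472). Serpinf1 (PEDF), a secreted serpin, went the other way, at 73.0, 241 and 182 CPM in f/f and at 338 and 300 CPM in FKO. The groups did not overlap, f/f replicate 1 was far below the others, and the log2 fold change of 0.95 (SE 0.43) had an edgeR adjusted p = 0.142.

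The 3 intracellular members all fell, beside 13.4% of all genes tested. Gsn (chromosome 2, 35256359 to 35307902, plus strand) was at 12016, 12412 and 11653 CPM in f/f and at 4989.6 and 3424 CPM in FKO. The f/f libraries lay within 1.07 times of each other, and the FKO level was 2.86-fold lower (log2 fold change -1.52, SE 0.25, edgeR adjusted p = 0.00733). Anxa3, a calcium-dependent membrane-binding annexin, was at 43.8, 59.4 and 86.3 CPM in f/f and at 18.2 and 24.3 CPM in FKO (-1.57, SE 0.30, edgeR adjusted p = 0.0126). Gfpt2, an enzyme of hexosamine synthesis, was at 13.4, 9.75 and 19.4 CPM in f/f and at 6.05 and 4.85 CPM in FKO (-1.38, SE 0.31, edgeR adjusted p = 0.0199). The calls of Anxa3 and Gfpt2 ended without FKO replicate 1 (adjusted p = 0.0925 and 0.0838) and without FKO replicate 2 (0.0513 and 0.118). The level of Gsn sets it apart from these 2 genes, which were at 63.2 and 14.2 CPM in f/f. The adipocyte list reached lower levels too, with Slc2a4 and Aqp7 at 168 and 177 CPM in f/f, below Dpt at 264 and Dcn at 240 CPM.

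**Figure D3:**
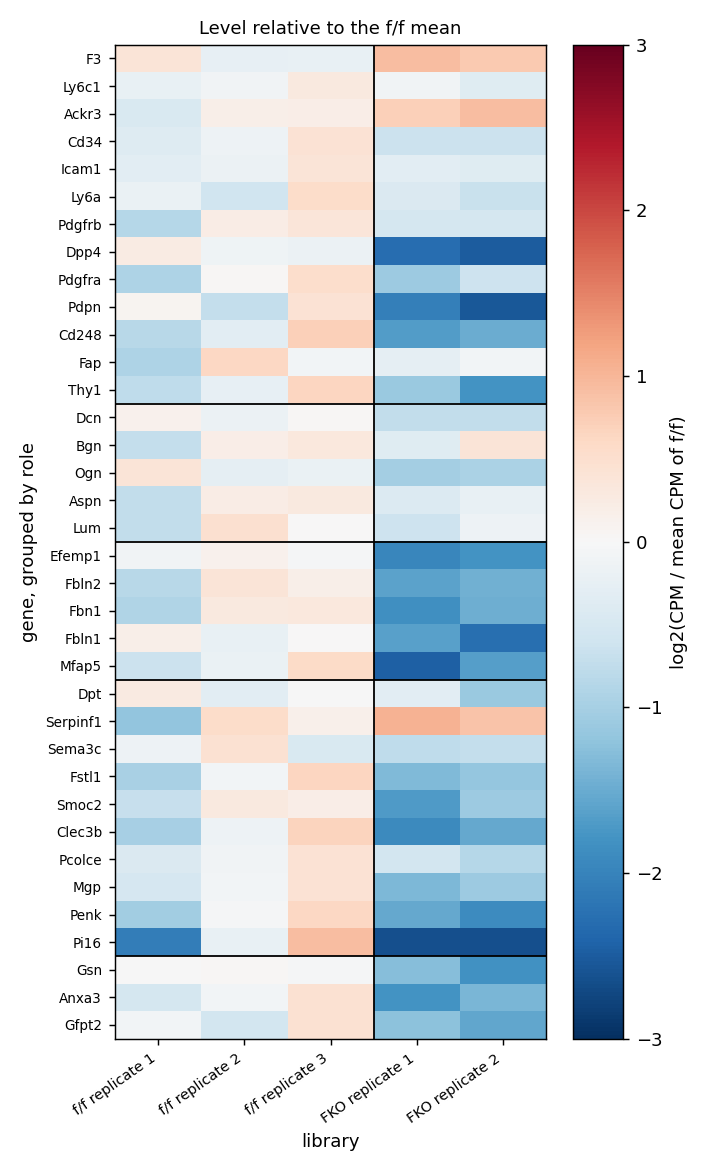
Log2 ratio of each member's CPM to its f/f mean in each library (columns), with members grouped by role and black lines between roles. Blue is below and red above the f/f mean. The FKO columns are blue for most members and red for F3, Ackr3 and Serpinf1, and f/f replicate 1 is the bluest f/f column.

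The table lists 63 transcripts for the 36 members, and 15 members have more than 1. Of the Gsn counts, 98.5%, 98.3% and 97.8% in the f/f libraries and 94.0% and 98.2% in those of FKO were given to the transcript that starts at position 35282380, which is the start shown above. The transcripts from the 2 upstream starts thus held little of the signal. FKO replicate 1 gave 0.574% of its Gsn counts to the transcript that starts at 35266744, against 0.0555% in FKO replicate 2 and at most 0.0192% in f/f. Decorin counts were given to its shorter transcript at 68.2%, 71.9% and 80.6% in f/f against 80.5% and 79.2% in FKO. The use of transcripts was tested in 14 members, and edgeR's diffSpliceDGE called 0 of them, with Gsn alone at an unadjusted p under 0.05 (adjusted p = 0.553). Among all 3997 genes tested 1.00% were called. Without FKO replicate 2 Gsn was called (adjusted p = 0.00409). In that setting FKO replicate 1 is the lone FKO library.

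There were 4 pairs of members within 200000 bases of each other in the genome, and with 3 and 2 libraries no pair's ratio could pass the test. Dpp4 and Fap, related peptidases 88705 bases apart on chromosome 2, gave count ratios (Dpp4 over Fap) of 6.48, 1.71 and 2.68 in f/f against 0.704 and 0.537 in FKO. The groups did not overlap, and the log2 ratio was lower in FKO by 2.33 (-2.33; exact permutation test, two-sided p = 0.2, the smallest this design allows, adjusted p = 0.4 over 4 pairs). Ogn over Aspn on chromosome 13 gave 4.25, 1.38 and 1.40 in f/f against 1.29 and 1.19 in FKO (p = 0.2, exact permutation test, adjusted p = 0.4). Dcn over Lum on chromosome 10 and Ly6a over Ly6c1 on chromosome 15 overlapped between the groups (p = 0.6 each, exact permutation test, adjusted p = 0.6). The 36 members lie on 16 chromosomes. In annotation 10 members share exonic bases with another gene, 9 of them with one on the opposite strand, and the use of strand in the counting is not given in the sources used here.

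A second list of 49 progenitor and fibroblast genes, chosen with earlier results of these data known, was read beside the members. Of 46 tested, 16 fell, 0 rose and 30 were not called, with a median of -0.73. Among all genes tested 13.4% fell. Both FKO libraries lay below all f/f libraries for 23 of the 46 and above them for 3, beside 30.5% and 28.6% of all genes. Prrx1 was 1 of those above, with 15.1 CPM in f/f and 31.4 CPM in FKO (log2 fold change 1.05, edgeR adjusted p = 0.0552). Pparg was at 231 and 233 CPM. The lysyl oxidase Loxl1 fell, with 23.6 ± 4.76 CPM (SD, n = 3) in f/f and 5.76 ± 0.15 CPM (SD, n = 2) in FKO, a log2 fold change of -2.04 (edgeR adjusted p = 0.00204). Abi3bp, a matrix protein, fell from 20.8 to 5.25 CPM (-1.98, edgeR adjusted p = 0.00312), the hyaluronan synthase Has1 from 13.9 to 3.60 CPM (-1.95, edgeR adjusted p = 0.00426) and the protease inhibitor Timp2 from 103 to 31.1 CPM (-1.73, edgeR adjusted p = 0.00464). These 4 calls held under all 14 alternatives.

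Markers of other cells moved in the same libraries, and their part in the members' changes was not tested. All 12 mesothelial markers tested fell, beside 13.4% of all genes tested, with a median of -2.11. Their summed level was 60.0 to 127 CPM in f/f and 28.8 and 18.4 CPM in FKO. Dpp6 of that list was at 0 in every library. Msln was at 15.1 CPM in f/f and 3.32 CPM in FKO, and Upk3b at 27.3 and 6.16 CPM (edgeR adjusted p = 0.00279 and 0.0127; Upk3b had 0.07 without FKO replicate 2, and its log2 fold change of -2.14 was -2.73 without FKO replicate 1). Of 15 macrophage markers 10 fell, beside the same 13.4% of all genes, with a median of -1.47. Their summed levels were 1131 to 2093 CPM in f/f and 501 and 678 CPM in FKO. Of 12 endothelial markers 0 fell and 0 rose, with a median of -0.21. The endothelial sum was 591 to 935 CPM in f/f and 676 and 596 CPM in FKO, and the mural sum 1133 to 1390.0 CPM in f/f and 1134 and 1107 CPM in FKO. Of 11 mural markers 3 fell and 1 rose, beside 13.4% and 11.9% of all genes tested. Most of the mural sum was Mcam (801 CPM in f/f and 629 CPM in FKO), and within it Cspg4 was at 48.6 and 286 CPM while Acta2 was at 145 and 39.0 CPM. Lymphocyte and epididymal epithelial markers summed to at most 3.73 and 8.34 CPM in any library. The 35 members without Gsn summed to 1551, 1796 and 1921 CPM in f/f and to 1426 and 1345 CPM in FKO. That sum is dominated by Dpt, Dcn, Serpinf1, Efemp1 and F3, of which Serpinf1 and F3 had higher values in FKO.

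**Figure D4:**
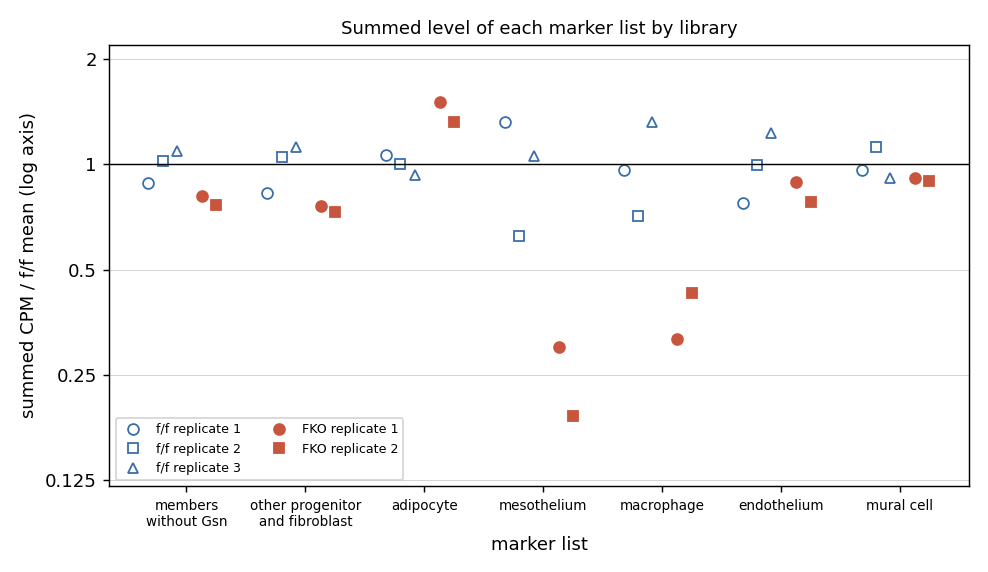
Summed CPM of each marker list in each library, divided by the f/f mean of that list, on a log axis. Open blue symbols are f/f libraries and filled red symbols FKO libraries. Both FKO libraries lie below all f/f libraries for the members without Gsn, for the other progenitor genes, for mesothelium and for macrophages. They lie above them for adipocyte markers. Vim made up 1837 of the 3528 CPM of the other progenitor genes in f/f and did not pass the test (edgeR adjusted p = 0.115).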

How the data were processed

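Poly-A RNA libraries (Illumina TruSeq, HiSeq4000) came from primary epididymal adipocytes, per the labels' protocols. Per the submitters' processing notes, the build was mm10 and the tools were StringTie 1.3.4d, Bowtie2, HISAT and HISAT2 2.1.0, with their roles not stated. The authors deposited whole-number estimated counts and FPKM values (named so per the file headers) for 36779 RefSeq transcripts, and 1 row without a gene, a blank line, was left out. Counts were summed per gene identifier and tested in R 4.3.3 with edgeR 4.0.16 (quasi-likelihood test on all 5 libraries, genotype only, TMM factors, filterByExpr, adjusted p threshold 0.05). Standard errors were derived from the log2 fold change and F. Columns follow the names in the descriptions, and 0 value columns were left unused. Libraries of 1 group differed by more than counting noise (median chi-square per gene 3.00 to 9.28, against 0.455 for noise). That check cannot tell separate animals from separate preparations of the same material. The biological coefficient of variation was 23%.

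The members, lists, tests and alternatives were chosen with earlier results of these data known. Members were named by role, in full for up to 5 of a role with the smallest p and for those that ran against the rest, with up to 4 genes of the smallest p from each further list. The edgeR and transcript tests were tested on simulated data. Alternatives were RLE and upper-quartile factors, library size alone, no filter and a stricter filter (mean of 10 counts in each group and 1 CPM over all libraries), DESeq2 1.42.0, limma-voom (limma 3.58.1), limma on log2(FPKM + 0.1) for genes with a mean of at least 0.1 FPKM, the replicate number as a block and each library left out in turn. Floors cover counting error only. Overlaps with other genes were read from GENCODE M21.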

Additional observations from a re-analysis of the deposited data

How the results depend on the processing

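Of the 19 members called, all kept their direction in 14 alternatives and 4 (Dpp4, Efemp1, Fbln1 and Gsn) also kept the call. The count of members that fell was 17 to 21 with other factors and filters, DESeq2 and FPKM, and 13 with limma-voom. With one library left out it ran from 4 to 22 and the count that rose from 0 to 2 (2 or 3 at an unadjusted p under 0.05). The members' median ran from -1.26 to -0.92 and the median of all genes from -0.06 to -0.03 in those settings, and over all genes the calls ran from 424 to 1759 lower and from 485 to 1690 higher. The members that rose numbered 1 (upper-quartile factors), 0 (library size alone) and 1 (limma on log2 FPKM, which changes test and filter too), and over all genes 1030 (library size alone) and 1071 (limma on log2 FPKM) rose. The cause of these differences was not tested, other than that fewer libraries enter a fit with one left out. Bgn changed sign with upper-quartile factors, library size alone and FPKM (-0.07, -0.17 and -0.14) and without f/f replicate 1 or FKO replicate 2 (-0.19 and -0.37; 0.39 at most, without FKO replicate 1). Fap did so without f/f replicate 2 (0.26; -0.46 at least, without f/f replicate 1). Transcript use gave 0 to 1 called members with one library left out. With the replicate number as a block, 19 members fell and 2 rose, with a median of -0.90. Penk lost its call (adjusted p = 0.0644), and Dpt, Fstl1 and Sema3c gained one. Deviations of same-numbered libraries from their group mean correlated at 0.0657 and -0.0812. The deviations of FKO replicates 1 and 2 mirror each other by construction. The check therefore cannot tell whether same-numbered libraries share more than a number.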
